A study of Mus musculus with 9 samples.

Results

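The proteasome members were every probe set on the array that carried 1 gene symbol built from Psm, a letter from a to g and a number, with the exception of *Psmb8*, *Psmb9* and *Psmb10*, the catalytic subunits of the immunoproteasome. This gave 53 probe sets of 47 genes, out of 28815 probe sets of which 21780 carried 1 symbol. Of the 53, 18 probe sets (14 genes) belonged to the 20S core, 19 (17 genes) to the 19S regulatory particle, 3 to 19S assembly chaperones, 4 to 20S assembly chaperones and 5 to other activators and regulators. A further 4 matched the naming rule without encoding a constitutive subunit. Each array (Affymetrix Mouse Gene 1.0 ST, log2 signals) held the liver RNA of 1 mouse, each group had 3, and the question was whether the core and the regulatory particle differed in mRNA level under calorie restriction (CR) or DGAT1 deficiency. All 9 mice were female, on a C57BL/6J background and 15 to 16 months old, and the study names a standard chow for all its mice. WTCR mice were wild type and given short-term CR, in which intake was cut in successive steps over several weeks. The study calls their restricted food a CR diet and does not describe how it differed from the chow. Dgat1-/-AL mice lacked DGAT1, which completes the synthesis of triglycerides, in all tissues and were fed *ad libitum*. WTAL mice were wild-type littermates fed *ad libitum*.

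The proteasome is the protease that degrades proteins tagged with ubiquitin. Its barrel-shaped 20S core is built of outer rings of alpha subunits, which form the gate, and inner rings of beta subunits, some of which carry the catalytic sites. The 19S particle caps the core, and its base holds the ATPases that unfold substrates while its lid removes the ubiquitin chain. In liver, as in other tissues, the subunits are assembled with the help of dedicated chaperones, and other caps can replace the 19S particle.

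The *Dgat1* signal of WTCR livers (8.90, 8.76 and 8.56) lay above that of knockout livers (6.14, 5.84 and 5.39), and WTAL livers gave 7.86, 5.67 and 8.04 for replicates 1, 2 and 3. The array labelled WTAL replicate 2 thus lay among the Dgat1-/-AL arrays and went against its label, so results that rest on WTAL are also given without it where that moves a call or a count. Dgat1-/-AL replicate 1 stood apart from the other arrays, with the lowest of the 9 signals in 17.4% and the highest in 15.2% of all probe sets, ties not counted. The hepatocyte markers found (4 of 5, *Alb*, *Ttr*, *Apoa1* and *Cps1*) were high in all 9 arrays, with *Alb* at 14.2 to 14.3, and none was called in any comparison, though *Cps1* (0.39) was called higher in WTCR without the array labelled WTAL replicate 2. Array medians ran from 5.80 to 5.84, and with 3 arrays per group the precision of each value is limited. In whole liver RNA, fewer cells of a type and less RNA per cell cannot be told apart.

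Between WTCR and WTAL livers 11.3% of the proteasome members were called, beside 8.06% of all probe sets, and they came from several parts of the complex. A call here needs a fold over 1.3 together with an unadjusted limma p under 0.05, and its direction is that of the mean. By this rule *Psmd9*, *Psmd8*, *Psmf1* and *Psmd13* were higher in WTCR livers and *Psme2* and *Psma1* lower. The 4 higher calls were 7.55% of the 53 members, where 4.25% of all probe sets were called higher. The 2 lower calls were 3.77% of the members, where 3.81% of all probe sets were called lower. The median log2 difference of the 53 members was 0.02, beside 0.0023 over all probe sets. Without the array labelled WTAL replicate 2 it was -0.03, beside 0.01.

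In Dgat1-/-AL livers no member was called in either direction against WTAL, where 0.465% of all probe sets were called higher and 0.760% lower. At an unadjusted limma p under 0.05 with no fold threshold, 3 members were higher (*Psmc2*, *Psmd11* and *Psmf1*, 5.66% of members against 1.95% of all probe sets) and 2 lower (*Psme2* and *Psmg3*, 3.77% against 2.62%). The adjusted p of these 5 was 0.97, and no probe set on the array passed an adjusted p under 0.05 in this comparison. Without the array labelled WTAL replicate 2, *Psmf1* (0.41) was called higher (1.89% of members, beside 0.524% of all probe sets) and 0 lower, beside 1.28%. With no fold threshold *Psmf1* and *Psmd11* (0.24) then were higher (3.77% of members, beside 1.92%), *Psme2* (-0.34) and *Psmg3* (-0.26) lower (3.77%, beside 2.95%), and *Psmc2* (0.32) no longer passed. Set directly against Dgat1-/-AL livers, WTCR livers had 3 members called higher, *Psmd9*, *Psmb4* and *Psmd13* (5.66% of members, beside 4.66% of all probe sets), and 1 called lower, *Psma1* (1.89%, beside 3.93%). All 3 comparisons draw on the same arrays, and those against WTAL share the WTAL livers.

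**Figure D1:**
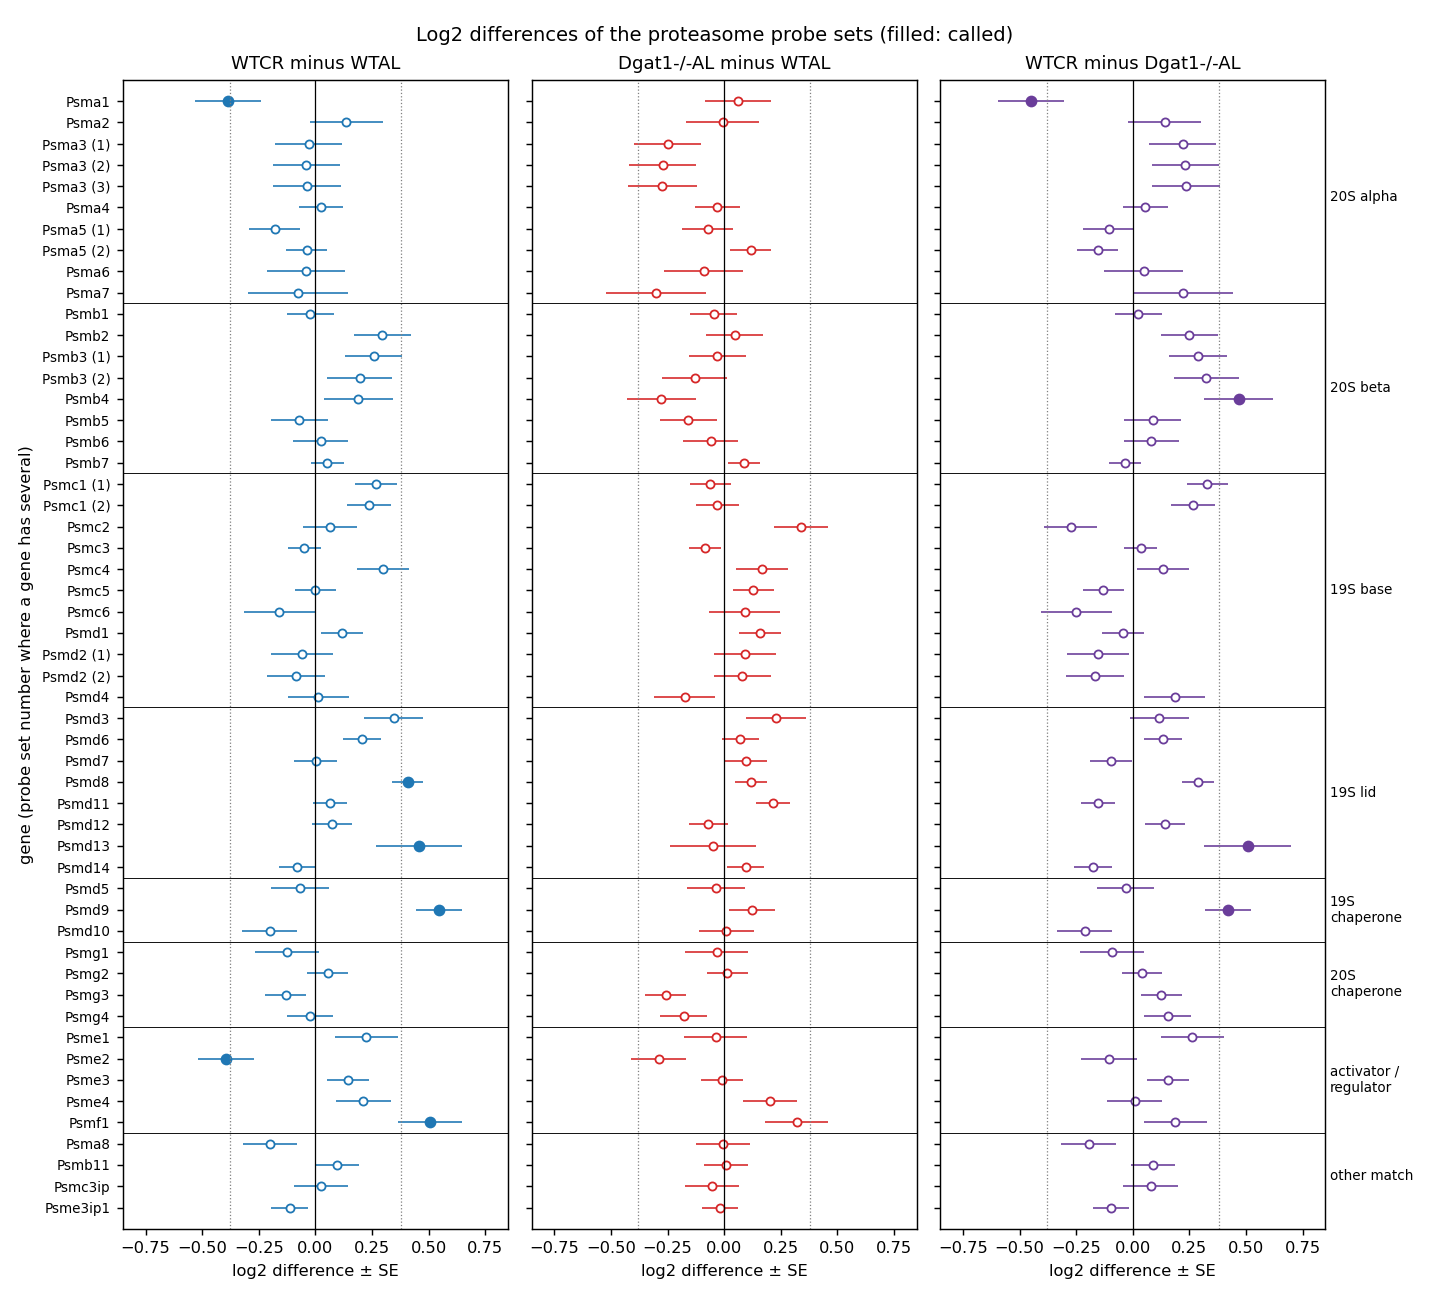
Log2 difference (x axis) of each of the 53 proteasome probe sets (y axis, grouped by particle) for WTCR minus WTAL, Dgat1-/-AL minus WTAL and WTCR minus Dgat1-/-AL, with bars for the SE from limma, filled points for called members and dotted lines at a fold of 1.3. The called members number 6, 0 and 4 in the 3 panels, and most open points lie close to 0.

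In the 19S lid, *Psmd8* had the smallest p of all members against WTAL. This lid subunit, also known as Rpn12, measured 9.76, 9.97 and 9.80 in WTCR livers, 9.53, 9.55 and 9.58 in Dgat1-/-AL livers, and 9.49, 9.39 and 9.42 in WTAL livers. Every WTCR value lay above every Dgat1-/-AL value, and every Dgat1-/-AL value above every WTAL value, with a spread within Dgat1-/-AL of only 0.03 (SD). The log2 difference of WTCR from WTAL was 0.41 ± 0.07 (SE, n = 3 mice per group), a 1.33-fold higher level with an adjusted p of 0.023 from limma. Between Dgat1-/-AL and WTAL it was 0.12 ± 0.07 (adjusted p = 0.97), and between WTCR and Dgat1-/-AL it was 0.29 ± 0.07 (adjusted p = 0.072, below the fold threshold). The adjusted p against WTAL was 0.067 with the replicate number as a block, 0.060 with a variance prior that follows intensity, and 0.023 to 0.094 with 1 array left out, and the call ended without WTCR replicate 2 (0.34).

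The sequence before the start of *Psmd8* is shown because of that p. The 250 bases upstream of its annotated start (chr7:29180674-29180923, minus strand, RefSeq, GRCm38.p6) read as follows, and neither of the motifs searched, described with *Psmd9*, occurs in them.
Psmd8: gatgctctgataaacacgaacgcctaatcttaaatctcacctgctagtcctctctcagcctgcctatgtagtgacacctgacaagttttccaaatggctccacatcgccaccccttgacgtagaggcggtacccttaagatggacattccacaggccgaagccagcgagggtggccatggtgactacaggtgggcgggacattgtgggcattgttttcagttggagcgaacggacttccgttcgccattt

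*Psmd13*, the lid subunit Rpn9, gave 9.27, 9.73 and 9.86 in WTCR livers, 8.85, 9.05 and 9.43 in Dgat1-/-AL livers, and 9.36, 9.15 and 8.97 in WTAL livers. WTCR replicate 1 lay inside the WTAL range, so the groups overlapped. WTCR exceeded WTAL by 0.46 ± 0.19 (adjusted p = 0.30) and Dgat1-/-AL by 0.51 ± 0.19 (adjusted p = 0.23). Both calls rested on single arrays: the one against WTAL ended without WTCR replicate 2 (0.40) or 3 (0.34), Dgat1-/-AL replicate 2 (0.46), or WTAL replicate 2 (0.45) or 3 (0.36), and also with the replicate number as a block (0.46, adjusted p = 0.34). The one against Dgat1-/-AL was lost on leaving out replicate 2 (0.45) or 3 (0.39) of WTCR, or replicate 1 (0.38) or 2 (0.48) of Dgat1-/-AL.

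A pair of further lid subunits passed an unadjusted p under 0.05 in WTCR against WTAL but not the fold threshold. *Psmd3* (Rpn3) was 8.55, 8.49 and 8.39 in WTCR livers, 8.63, 8.14 and 8.32 in Dgat1-/-AL livers and 7.94, 8.21 and 8.25 in WTAL livers, a log2 difference of 0.35 ± 0.13 from WTAL. It became a call without WTCR replicate 3, WTAL replicate 2 or WTAL replicate 3. *Psmd6* (Rpn7) differed by 0.21 ± 0.08, with WTCR values of 9.73 to 10.04, Dgat1-/-AL values of 9.72 to 9.80 and WTAL values of 9.68 to 9.72 that did not overlap with WTCR. The 4 other lid genes, *Psmd7*, *Psmd11*, *Psmd12* and the deubiquitinase gene *Psmd14*, had differences of -0.08 to 0.07 in WTCR. In Dgat1-/-AL livers *Psmd11* (Rpn6) stood at 10.05, 10.16 and 10.24 against 9.88, 9.98 and 9.94 in WTAL, a difference of 0.22 ± 0.07 (adjusted p = 0.97). Its groups did not overlap, and its WTCR values of 9.90, 10.06 and 10.03 overlapped both.

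The 19S base had no called member in any comparison. *Psmc1* (Rpt2), one of the ATPases, was measured by 2 probe sets, which moved alike: the first gave 9.82, 9.91 and 9.69 in WTCR, 9.59, 9.38 and 9.46 in Dgat1-/-AL and 9.61, 9.40 and 9.59 in WTAL livers. Its WTCR values lay above all others, by 0.27 ± 0.09 from WTAL and 0.33 ± 0.09 from Dgat1-/-AL, and the second probe set gave 0.24 ± 0.10 and 0.26 ± 0.10. *Psmc4* (Rpt3) differed by 0.30 ± 0.11 in WTCR. These 3 probe sets passed an unadjusted p under 0.05 but not the fold threshold.

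*Psmc2* (Rpt1), another base ATPase, differed in the other group. It measured 9.73, 9.30 and 9.44 in Dgat1-/-AL livers against 9.01, 9.12 and 9.32 in WTAL livers, and Dgat1-/-AL replicate 2 lay inside the WTAL range. The difference was 0.34 ± 0.12 (adjusted p = 0.97), and it passed the fold threshold, as a call, without Dgat1-/-AL replicate 2 or WTAL replicate 3. Against Dgat1-/-AL the WTCR values of 9.25, 9.22 and 9.17 were lower by a log2 difference of -0.28 ± 0.12 without overlap. *Psmc3*, *Psmc5*, *Psmc6*, *Psmd1*, *Psmd2* (2 probe sets) and the ubiquitin receptor gene *Psmd4* had differences of -0.16 to 0.12 in WTCR and -0.17 to 0.16 in Dgat1-/-AL livers.

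Counted over the regulatory particle, 7 of the 19 probe sets (36.8%) were higher in WTCR than in WTAL at an unadjusted p under 0.05, beside 8.36% of all probe sets, and 0 were lower, beside 6.69%. They come from 6 genes, since *Psmc1* has 2 probe sets. Without the array labelled WTAL replicate 2 only *Psmd3* and *Psmd8* passed that p (10.5%, beside 7.11% of all probe sets), and the others measured 0.20 and 0.12 (*Psmc1*), 0.25 (*Psmc4*), 0.20 (*Psmd6*) and 0.45 (*Psmd13*). With the fold threshold the counts were 2 higher (10.5%) and 0 lower. In 6 of the 19 the WTCR values lay wholly above the WTAL values, beside 11.2% of all probe sets, and in 0 wholly below, beside 8.44%. Without that array *Psmd1* (0.17) also lay wholly above, and *Psmc6* (-0.19) and *Psmd14* (-0.15) lay wholly below. Fewer WTAL arrays then remained to overlap with, and the matching shares of all probe sets were not counted. The median log2 difference of the 19 was 0.06 in WTCR and 0.09 in Dgat1-/-AL livers, and without that array 0.09 and 0.07.

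Genes of the 20S core varied more between mice and moved in both directions. *Psma1*, an alpha-ring subunit, measured 9.64, 9.28 and 9.44 in WTCR livers, 10.15, 9.83 and 9.73 in Dgat1-/-AL livers, and 9.73, 9.73 and 10.07 in WTAL livers. All WTCR values lay below the values of both other groups. The log2 difference of WTCR was -0.39 ± 0.15 from WTAL (adjusted p = 0.24, 1.31-fold lower) and -0.45 ± 0.15 from Dgat1-/-AL (adjusted p = 0.16). Its fold against WTAL lies just past the threshold, and that call ended without WTCR replicate 2 (-0.30) or 3 (-0.38) or WTAL replicate 3 (-0.27), or with each array centred on its median (-0.38). Against Dgat1-/-AL the call ended without WTCR replicate 2 (-0.36) or Dgat1-/-AL replicate 1 (-0.32).

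*Psmb4*, a structural beta subunit, differed only in the direct comparison. It stood at 10.62, 10.99 and 10.95 in WTCR livers, 10.15, 10.27 and 10.73 in Dgat1-/-AL livers and 10.69, 10.65 and 10.65 in WTAL livers. WTCR and Dgat1-/-AL overlapped, each with 1 array on the far side of the WTAL values. WTCR exceeded Dgat1-/-AL by 0.47 ± 0.15 (adjusted p = 0.16), while the differences from WTAL, 0.19 ± 0.15 in WTCR and -0.28 ± 0.15 in Dgat1-/-AL, were not called. The direct call was lost on leaving out replicate 2 (0.40) or 3 (0.42) of WTCR, or replicate 1 (0.35) or 2 (0.41) of Dgat1-/-AL, and *Psmb4* became a lower call in Dgat1-/-AL against WTAL without Dgat1-/-AL replicate 3 (-0.45).

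The other alpha genes, *Psma2* to *Psma7*, had differences of -0.18 to 0.14 in WTCR and -0.30 to 0.12 in Dgat1-/-AL livers. Of these, *Psma3* was read by 3 probe sets that gave -0.03, -0.04 and -0.04 in WTCR and -0.25, -0.27 and -0.27 in Dgat1-/-AL, so the repeats carried 1 gene's value more than once. Among the beta genes, *Psmb2* was higher in WTCR by 0.30 ± 0.13 at an unadjusted p of 0.044 and without overlap, at 9.08, 8.97 and 9.03 against 8.47, 8.88 and 8.85 in WTAL. The catalytic subunit genes *Psmb5*, *Psmb6* and *Psmb7* gave -0.07, 0.02 and 0.05 in WTCR, and *Psmb1* and the 2 probe sets of *Psmb3* gave -0.02, 0.26 and 0.20. Over the 18 core probe sets 1 was higher and 1 lower at an unadjusted p under 0.05 in WTCR (5.56% each, beside 8.36% and 6.69% of all probe sets). In Dgat1-/-AL livers 0 passed in either direction, beside 1.95% and 2.62%.

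**Figure D2:**
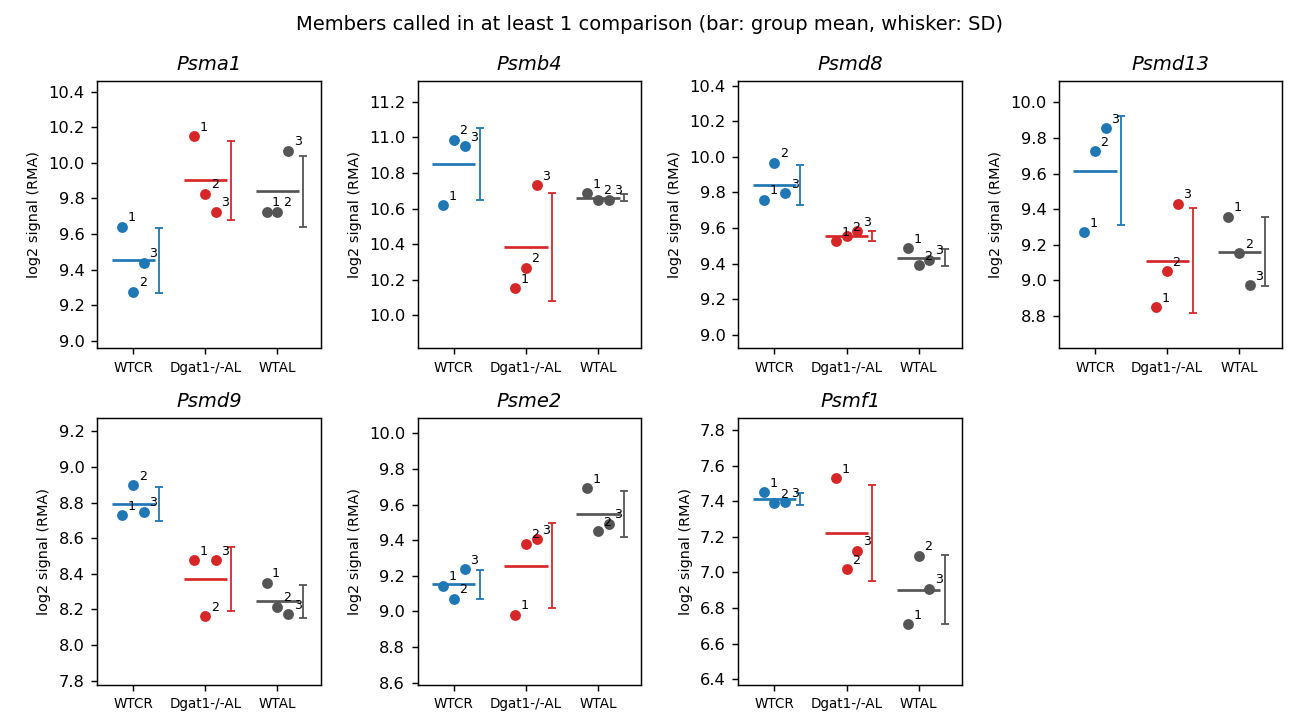
Log2 signal after RMA (y axis) of the 7 proteasome probe sets called in at least 1 comparison, for each array, with groups along the x axis, numbers that give the replicate, a bar at the group mean and a whisker for the SD. For *Psmd8* and *Psmd9* all WTCR points lie above all others, and for *Psma1* all lie below.

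Of the genes that help to assemble the particles, *Psmd9* differed most of all members between WTCR and WTAL livers. It encodes the chaperone p27, which binds ATPases of the 19S base during assembly and is absent from the finished particle. Its signal was 8.73, 8.90 and 8.75 in WTCR livers, 8.48, 8.16 and 8.48 in Dgat1-/-AL livers and 8.35, 8.22 and 8.17 in WTAL livers. Every WTCR value lay above every other value, while Dgat1-/-AL and WTAL overlapped. WTCR exceeded WTAL by 0.55 ± 0.10 (1.46-fold, adjusted p = 0.028 from limma) and Dgat1-/-AL by 0.42 ± 0.10 (adjusted p = 0.066). The call against WTAL held with any 1 of the 9 arrays left out (0.49 to 0.60), with adjusted p-values of 0.023 to 0.12, and the adjusted p was 0.071 with the replicate number as a block. The call against Dgat1-/-AL ended without WTCR replicate 2 (0.37) or Dgat1-/-AL replicate 2 (0.32).

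The other 19S chaperone genes, *Psmd5* (S5b) and *Psmd10* (gankyrin), gave -0.07 ± 0.13 and -0.20 ± 0.12 in WTCR. For *Psmd10* the WTCR values of 7.91, 7.64 and 7.90 lay below the WTAL values of 8.01, 7.94 and 8.10 without reaching an unadjusted p under 0.05. The 20S assembly chaperone genes *Psmg1* to *Psmg4* gave -0.13 to 0.05 in WTCR, none past that p. In Dgat1-/-AL livers *Psmg3* stood at 6.50, 6.41 and 6.71 against 6.76, 6.80 and 6.84 in WTAL, a difference of -0.26 ± 0.09 without overlap.

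Upstream sequences were searched on both strands, from 250 bases before to 50 after the annotated start, for TGACNNNGC, the core of the antioxidant response element through which the factors encoded by *Nfe2l1* and *Nfe2l2* are known to act on proteasome genes, and for CCAAT, the box bound by NF-Y. RefSeq windows were matched for 39 of the 47 genes. TGACNNNGC was present in 6 of them (15.4%), beside 14.0% of all 27025 genes, and CCAAT in 15 (38.5%) beside 41.1%. No gene held both. *Psmd9* was among the 6, and its 250 bases before the start (chr5:123227940-123228189, plus strand, GRCm38.p6) are shown with TGACNNNGC, at position -31 from the start, in capitals.
Psmd9: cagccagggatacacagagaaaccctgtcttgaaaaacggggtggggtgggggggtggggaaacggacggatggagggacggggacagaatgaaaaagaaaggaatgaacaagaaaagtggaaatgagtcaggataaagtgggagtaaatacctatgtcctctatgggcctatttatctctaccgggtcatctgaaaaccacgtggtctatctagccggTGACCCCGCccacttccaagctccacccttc

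The 5 other matches are shown for comparison, in the direction of the gene and with the motif or its reverse complement in capitals. They lie at positions -47 (*Psmb5*), -9 (*Psmb6*), -227 (*Psmc6*, reverse strand), -247 (*Psmd12*, reverse strand) and -7 (*Psme4*, reverse strand).
Psmb5 (chr14:54618026-54618050, minus strand): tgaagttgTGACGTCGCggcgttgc
Psmb6 (chr11:70525340-70525364, plus strand): aaagagagTGACGGAGCgctttacg
Psmc6 (chr14:45329589-45329613, plus strand): agccagtaGCTAAGTCAggcattgc
Psmd12 (chr11:107479278-107479297, plus strand): tctGCTGTGTCAcatttgcc
Psme4 (chr11:30771760-30771784, plus strand): ctgcggctGCAGCGTCAccagaaga
Of these 6 genes only *Psmd9* was called in WTCR against WTAL, and the log2 differences of the 5 others were -0.07, 0.02, -0.16, 0.07 and 0.21 in the order shown. Such a match describes the letters only and was not tested as a binding site.

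Among the activators and regulators, *Psmf1* and *Psme2* moved in opposite directions in WTCR livers. *Psmf1* encodes PI31, a protein that binds the 20S core and was first described as its inhibitor. It measured 7.45, 7.39 and 7.39 in WTCR livers, 7.53, 7.02 and 7.12 in Dgat1-/-AL livers and 6.71, 7.09 and 6.91 in WTAL livers. WTCR lay wholly above WTAL with a spread of 0.03 (SD), whereas Dgat1-/-AL ran from within WTAL to above WTCR. The difference was 0.51 ± 0.14 in WTCR (1.42-fold, adjusted p = 0.11), a call that held with any 1 array left out (0.41 to 0.60). In Dgat1-/-AL livers it was 0.32 ± 0.14 (adjusted p = 0.97), not called, and became a call without Dgat1-/-AL replicate 2 (0.42) or the array labelled WTAL replicate 2 (0.41).

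*Psme2* encodes PA28 beta, a subunit of the 11S cap that is known to be induced by interferon gamma together with its partner PA28 alpha, encoded by *Psme1*. *Psme2* stood at 9.15, 9.07 and 9.24 in WTCR livers, 8.98, 9.38 and 9.41 in Dgat1-/-AL livers and 9.69, 9.45 and 9.49 in WTAL livers. Both groups lay wholly below WTAL. The difference was -0.39 ± 0.12 in WTCR (adjusted p = 0.15, 1.31-fold lower) and -0.29 ± 0.12 in Dgat1-/-AL livers (adjusted p = 0.97, not called). This call was lost on leaving out replicate 2 of WTCR (-0.36) or replicate 1 of WTAL (-0.32). *Psme1*, by contrast, measured 10.16, 9.89 and 10.03 in WTCR against 9.50, 10.01 and 9.89 in WTAL, an overlapping 0.23 ± 0.14. The probe set annotated to both *Psme2* and its copy *Psme2b* was not among the members.

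Interferon-stimulated genes and markers of immune, endothelial and stellate cells included lower calls in the same livers as *Psme2*. Relative to the WTAL mean, the 5 interferon-stimulated genes found of 8 averaged -1.84 to -1.48 per array in WTCR, -0.63 to 0.08 in Dgat1-/-AL and -0.11 to 0.13 in WTAL livers, and 5 were called lower with CR, against 1 with DGAT1 deficiency. Over all probe sets 3.81% were called lower in WTCR but only 0.760% in Dgat1-/-AL livers, so the counts of the 2 groups have unlike backgrounds. The 8 Kupffer cell and macrophage markers averaged -0.81 to -0.13 in WTCR (3 called lower), -0.71 to -0.29 in Dgat1-/-AL (4 called lower) and -0.46 to 0.23 in WTAL livers. Called lower were also 2 of 4 T and NK cell markers in WTCR against 0 in Dgat1-/-AL, and 3 against 1 of 3 B and plasma cell markers. Of 4 stellate cell markers *Lrat* (-0.63) and *Reln* (-0.50) were called lower in WTCR and 0 in Dgat1-/-AL, with averages of -0.30 to -0.19 in WTCR, 0.01 to 0.17 in Dgat1-/-AL and -0.08 to 0.05 in WTAL livers. The 6 probe sets of sinusoidal endothelium averaged -0.41 to -0.07 in WTCR, -0.18 to 0.15 in Dgat1-/-AL and -0.14 to 0.09 in WTAL livers. One of the 2 read for *Clec4g* was a lower call in both groups, at -1.004 ± 0.12 for WTCR (adjusted p = 0.0085) and -0.565 ± 0.12 for Dgat1-/-AL livers, while the other gave 0.00067 and 0.015. *Lyve1* was also called lower (-0.64) and *Stab2* higher (0.65) in Dgat1-/-AL livers, and 0 of 4 cholangiocyte markers were called in either group. Without the array labelled WTAL replicate 2, lower calls among the interferon-stimulated genes numbered 5 in WTCR and 0 in Dgat1-/-AL, among Kupffer cell markers 2 and 2, and among T and NK cell markers 2 and 1. The shares of all probe sets called lower then were 4.13% in WTCR and 1.28% in Dgat1-/-AL livers. The part of these cells in the *Psme2* values was not tested. The remaining activator genes, *Psme3* (PA28 gamma) and *Psme4* (PA200), gave 0.14 ± 0.09 and 0.21 ± 0.12 in WTCR and -0.01 ± 0.09 and 0.20 ± 0.12 in Dgat1-/-AL livers.

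The 4 genes that matched the naming rule only were *Psma8*, a testis form of an alpha subunit, *Psmb11*, a thymus form of a beta subunit, *Psmc3ip*, a protein of meiotic recombination, and *Psme3ip1*, which interacts with PA28 gamma. Their differences ran from -0.20 to 0.10 in WTCR and -0.05 to 0.01 in Dgat1-/-AL livers, and none passed an unadjusted p under 0.05. The first 3 were also the only members with a mean log2 signal under 6.

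**Figure D3:**
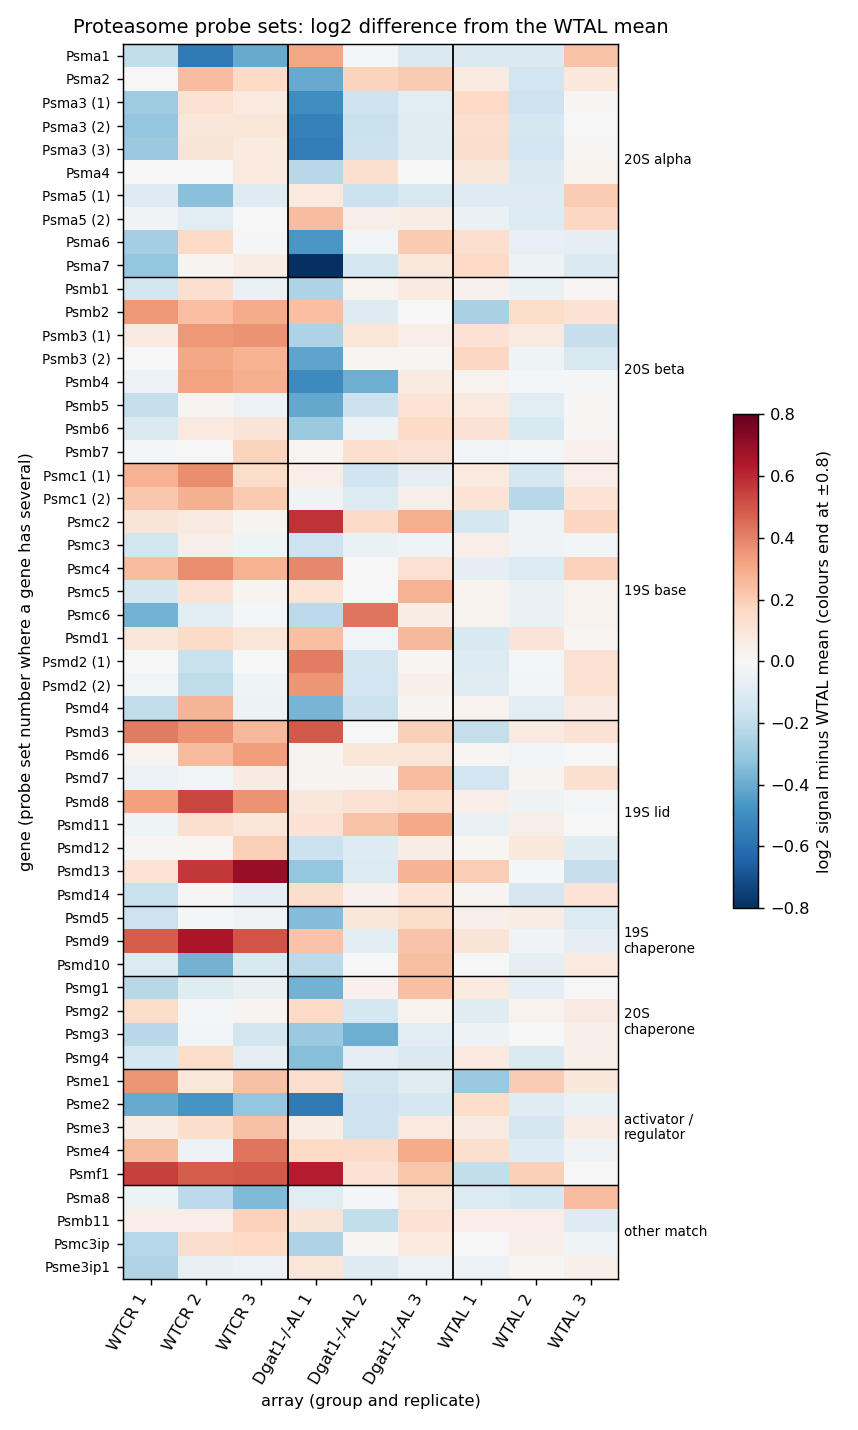
Log2 signal minus the WTAL mean (colour, with the scale ending at ±0.8) of the 53 proteasome probe sets (y axis, grouped by particle, numbered where a gene has several) in each of the 9 arrays (x axis). Dgat1-/-AL replicate 1 is the lowest array in 13 of the 18 core rows, and WTCR arrays are high for *Psmd8*, *Psmd9* and *Psmf1*.

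Averages over the whole core and over the whole 19S particle overlapped between the groups. The mean of the 18 core probe sets, relative to the WTAL mean, was -0.10, 0.07 and 0.08 for WTCR, -0.26, -0.05 and 0.04 for Dgat1-/-AL and 0.05, -0.07 and 0.02 for WTAL livers. For the 19 probe sets of the 19S particle it was 0.04, 0.16 and 0.14 in WTCR, 0.09, 0.00 and 0.13 in Dgat1-/-AL and -0.02, -0.03 and 0.05 in WTAL arrays. On the first measure the lowest array was Dgat1-/-AL replicate 1, and on the second the highest were WTCR replicates 2 and 3.

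Some smaller classes did separate, while the alpha ring, the beta ring, the 19S base and the 20S chaperones overlapped between the groups. The 8 lid probe sets, *Psmd8* and *Psmd13* among them, averaged 0.08, 0.23 and 0.24 in WTCR, 0.05, 0.04 and 0.18 in Dgat1-/-AL and -0.01, 0.00 and 0.01 in WTAL arrays, so both groups lay above WTAL. The 5 activators and regulators averaged 0.16, 0.04 and 0.22 in WTCR, 0.08, -0.04 and 0.07 in Dgat1-/-AL and -0.03, 0.01 and 0.01 in WTAL arrays, and the 3 19S chaperones 0.07, 0.09 and 0.12 in WTCR, -0.11, 0.00 and 0.21 in Dgat1-/-AL and 0.05, -0.01 and -0.03 in WTAL arrays. In both of these WTCR lay above WTAL and Dgat1-/-AL overlapped it. In WTCR against WTAL, *Psmd9* (0.55) was the only 19S chaperone gene with a positive difference, beside *Psmd5* (-0.07) and *Psmd10* (-0.20). Of the activators and regulators, *Psmf1* (0.51) was called higher and *Psme2* (-0.39) lower. No test was run on the class averages. With the array labelled WTAL replicate 2 left out, the lid averaged 0.19 above WTAL in WTCR and 0.09 in Dgat1-/-AL livers, still without overlap, and the alpha ring, which had overlapped, averaged -0.13 in WTCR and -0.17 in Dgat1-/-AL livers, both without overlap. The alpha average counts *Psma3* in 3 of its 10 probe sets, and its Dgat1-/-AL arrays ran from -0.35 to -0.05. Fewer WTAL arrays then remained to overlap with.

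The difference of the core mean from the 19S mean within an array was -0.14, -0.09 and -0.06 in WTCR livers (mean -0.10 ± 0.04, SD, n = 3), -0.36, -0.06 and -0.09 in Dgat1-/-AL livers (mean -0.17 ± 0.16) and 0.06, -0.04 and -0.03 in WTAL livers (SD 0.06). All 6 WTCR and Dgat1-/-AL arrays thus lay below all 3 WTAL arrays, though the nearest were close, and no test was run on this average. With 1 value per gene the group means were -0.10 and -0.16. The size in Dgat1-/-AL rested on replicate 1, without which its mean was -0.07, while without the array labelled WTAL replicate 2 the means were -0.12 in WTCR and -0.19 in Dgat1-/-AL livers.

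**Figure D4:**
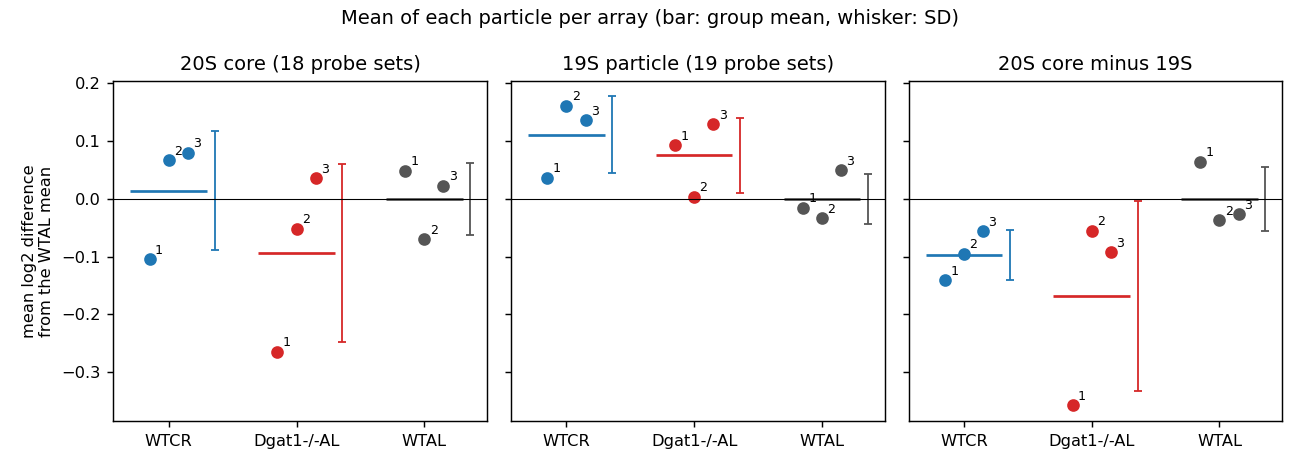
Particle average per array (y axis, log2 units, WTAL mean set to 0) of the 18 core probe sets, the 19 probe sets of the 19S particle, and the core minus the 19S mean, with groups along the x axis, a bar at the group mean and a whisker for the SD. In the right panel the WTCR and Dgat1-/-AL arrays lie at -0.36 to -0.06 and the WTAL arrays at -0.04 to 0.06.

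Dgat1-/-AL replicate 1 was low across much of the core. It had the lowest of the 9 signals in 13 of the 18 core probe sets (72.2%), 7 of 10 in the alpha ring and 6 of 8 in the beta ring. In the 19S particle it was lowest in 4 of 19 and highest in 6. Over all members it was lowest in 22 of 53 (41.5%), where it was lowest in 17.4% of all probe sets. *Psma7* showed this most clearly, at 9.07 in that array and 9.61 to 10.08 in the other 8.

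The median log2 difference of the core between WTCR and Dgat1-/-AL, 0.11, was -0.04 without Dgat1-/-AL replicate 1, and that of WTCR from WTAL, -0.03, was 0.09 without WTCR replicate 1. In Dgat1-/-AL against WTAL the core median was -0.07. It was -0.0042 without Dgat1-/-AL replicate 1, -0.14 without Dgat1-/-AL replicate 3 and -0.12 without the array labelled WTAL replicate 2. The SD within groups had a median of 0.18 over the core probe sets, 0.12 over the 19S probe sets and 0.13 over all probe sets.

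Counts of members without overlap between groups were 9 higher and 3 lower for WTCR against WTAL (17.0% and 5.66% of members), beside 11.2% and 8.44% of all probe sets. For Dgat1-/-AL against WTAL they were 4 higher and 3 lower (7.55% and 5.66%), beside 3.16% and 3.86% of all probe sets. *Psmd6*, *Psmd8*, *Psmd11* and *Psme4* were the 4 higher and *Psmc3*, *Psmg3* and *Psme2* the 3 lower. For WTCR against Dgat1-/-AL they were 4 higher and 4 lower, beside 9.05% and 7.10%. At an unadjusted p under 0.05 that comparison had 6 members higher, beside 8.96% of all probe sets, and 2 lower, *Psma1* and *Psmc2*, beside 6.87%. Without the array labelled WTAL replicate 2, more members lay apart from WTAL. In WTCR *Psmd1* was then also wholly above, and *Psmc6*, *Psmd14* and *Psmg1* wholly below. In Dgat1-/-AL livers *Psmf1* was also wholly above. *Psma3* in all its probe sets, *Psmd4*, *Psmg4* and the second probe set of *Psmc1* were also wholly below. The matching shares of all probe sets were not counted.

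Without the array labelled WTAL replicate 2, the WTCR differences from WTAL were 0.39 for *Psmd8* (adjusted p = 0.069), 0.53 for *Psmd9* (adjusted p = 0.085), 0.60 for *Psmf1*, -0.45 for *Psma1* and -0.44 for *Psme2*, all still called. The count stayed at 4 higher, with *Psmd3* in place of *Psmd13*, and 2 lower, beside 4.03% and 4.13% of all probe sets. At an unadjusted p under 0.05 with no fold threshold, 5 were then higher (9.43%, beside 7.11% of all probe sets) and 2 lower (3.77%, beside 6.49%). WTCR replicate 2 decided more: without it the calls of *Psmd8* (0.34), *Psmd13*, *Psma1* and *Psme2* against WTAL ended, leaving 2 higher and 0 lower, and all 4 calls against Dgat1-/-AL ended.

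Genes that work with the proteasome were listed by role and read on the same rule. By that rule 4.25% of all probe sets were called higher and 3.81% lower in WTCR, and 0.465% and 0.760% in Dgat1-/-AL livers. The immunoproteasome subunits, which replace catalytic beta subunits under interferon, were lower in WTCR livers in 3 of 3 cases. *Psmb8* was 7.68, 7.53 and 7.26 in WTCR, 7.74, 7.96 and 8.01 in Dgat1-/-AL and 8.51, 8.28 and 8.84 in WTAL livers, with all values of both groups below WTAL. It was called lower in both, by -1.05 ± 0.16 for WTCR (adjusted p = 0.015) and -0.64 ± 0.16 for Dgat1-/-AL livers (adjusted p = 0.97). *Psmb9* and *Psmb10* differed by -0.54 ± 0.16 and -0.49 ± 0.16 in WTCR, whereas the constitutive counterparts *Psmb5*, *Psmb6* and *Psmb7*, given above, were not called. In Dgat1-/-AL livers *Psmb9* (-0.13 ± 0.16) and *Psmb10* (-0.32 ± 0.16) were not called. Without the array labelled WTAL replicate 2 WTCR livers differed by -1.19 for *Psmb8* (adjusted p = 0.023) and Dgat1-/-AL livers by -0.78, and the calls of all 3 genes in WTCR remained.

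Of 12 proteasome partners without a Psm symbol 10 were found, and none was called against WTAL. One of them, *Pomp*, the chaperone that completes the 20S core, measured 10.59, 10.27 and 10.29 in WTCR livers against 10.99, 10.83 and 10.71 in Dgat1-/-AL livers, a lower call (-0.46 ± 0.12, adjusted p = 0.078). *Nfe2l1*, which encodes the factor that raises proteasome gene transcription when proteasome activity falls, stood at 8.49, 7.88 and 7.99 in WTCR, 9.01, 8.43 and 8.58 in Dgat1-/-AL and 8.61, 8.50 and 8.84 in WTAL livers. It was called lower in WTCR against WTAL (-0.53 ± 0.19, adjusted p = 0.23), without overlap, and the other 2 genes found of the 4 regulators were not called. Of 9 shuttle factors and unfoldase genes 8 were found and 1 was called, *Ufd1*, a cofactor of the unfoldase p97, at 0.39 ± 0.12 in WTCR (adjusted p = 0.14), a call that ended without the array labelled WTAL replicate 2 (0.36). From the ubiquitin and E1 genes only *Uba6*, an alternative E1 enzyme, was read, at 6.93, 6.38 and 6.93 in WTCR, 7.20, 7.30 and 7.07 in Dgat1-/-AL and 7.43, 7.51 and 7.76 in WTAL livers (-0.82 ± 0.16 in WTCR, adjusted p = 0.032). Without that array *Uba6* (-0.85, adjusted p = 0.080) and *Nfe2l1* (-0.60) were still called lower in WTCR. The ubiquitin ligase genes *Fbxo32* and *Trim63*, known for their induction in muscle by food restriction, were not called.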

How the data were processed

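Liver RNA of 9 mice was hybridized to Affymetrix Mouse Gene 1.0 ST arrays. The authors deposited log2 signals made with RMA, which corrects background, quantile-normalizes the arrays and summarizes each probe set. Quantile normalization removes any difference shared by all probe sets. Gene symbols came from the platform annotation, and 47 of 47 member symbols were found in the RefSeq table of GRCm38.p6. No filter on low signals was used. With limma 3.58.1 in R 4.3.3, group means and a spread shared by the 9 arrays were fitted to all 28815 probe sets, after a test on simulated data, and p-values were adjusted over them by the Benjamini-Hochberg method. These p-values set each difference against the spread between mice within the labelled groups, which limma moderates with the spread of all probe sets. Every member is named, with values per array and full statistics for the 7 called in any comparison. Members and lists were chosen with earlier results of these data known. Promoter sequences came from RefSeq, and matches were counted in Python 3.11.15. Besides leaving out each array, 7 alternatives were run. Replicate numbers come from the sample titles. Deviations of same-numbered arrays correlated at 0.48, 0.25 and 0.21 between WTCR and Dgat1-/-AL, at -0.23, 0.05 and -0.07 between WTCR and WTAL, and at -0.32, -0.09 and -0.23 between Dgat1-/-AL and WTAL. Differently numbered arrays were not compared in this way, and the labels do not say what a number shares, so no pairing was shown.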

Additional observations from a re-analysis of the deposited data

How the results depend on the processing

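Of 336 settings of the named members' differences, 294 kept direction and side of the threshold, and none reversed a call. The 336 include differences not called in the main fit. They also include settings that leave the difference itself unchanged, such as leaving out an array of the group not compared. Leaving out 1 array in turn gave 2 to 5 members higher and 0 to 2 lower in WTCR against WTAL, 0 to 2 and 0 to 1 in Dgat1-/-AL against WTAL, and 0 to 5 and 0 to 1 in WTCR against Dgat1-/-AL. The core median then ran from -0.0628 to 0.0882 in WTCR against WTAL and from -0.0375 to 0.223 in WTCR against Dgat1-/-AL. An adjusted p under 0.05 left 2 higher and 0 lower in WTCR against WTAL and 0 and 0 in WTCR against Dgat1-/-AL. Of all 28815 probe sets it left 430 higher and 387 lower in the first and 469 and 355 in the second. Without the fold threshold the counts in WTCR against WTAL were 10 higher (18.9% of members, beside 8.36% of all probe sets) and 2 lower (3.77%, beside 6.69%). In Dgat1-/-AL against WTAL they were 3 and 2 (5.66% and 3.77%, beside 1.95% and 2.62%). In WTCR against Dgat1-/-AL they were 6 and 2 (11.3% and 3.77%, beside 8.96% and 6.87%). With each array centred on its median, 1 was lower in WTCR against WTAL. With the replicate block, 3 were higher in WTCR against WTAL, since *Psmd13* ended, and the block changed no other member's call, though the adjusted p of *Psmd8* and *Psmd9* then was 0.067 and 0.071. The 3 arrays per group limit every value, and leaving out 1 array ended every called difference at least once, except those of *Psmd9* and *Psmf1* from WTAL. The cause of these changes was not tested.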
